A study of Mus musculus with 9 samples.

Results

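The insulin-like growth factor (IGF) system was followed through 10 genes: the ligands Igf1 and Igf2, the receptors Igf1r and Igf2r, and the binding proteins Igfbp2, Igfbp3, Igfbp4, Igfbp5, Igfbp6 and Igfbp7. They are a list of named genes, not picked by a threshold on their values, and are 10 of the 56398 features in the count table. A count was found in at least 1 library for 9 of the 10, Igf2 being the exception. The data are RNA-seq libraries of bulk tissue from BALB/c mice, 3 per group and 9 in all. AC libraries are tumours grown from injected CT26, a colon carcinoma line of the same strain, in mice that received Astragalus and Curcuma phaeocaulis at 2:1 and 6 g/kg, once a day. Model libraries are CT26 tumours from mice that received saline once a day, also labelled 6 g/kg. Sham libraries are healthy colon, so both tumour groups differ from sham in tissue as well as in tumour, and AC differs from model in the herbs. The tumours come from a single cell line, and the sources used here do not give the age and sex of the mice or the site of injection.

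IGF1 and IGF2 are secreted growth factors that bind the tyrosine kinase receptor IGF1R and, through adaptors such as IRS1, turn on the phosphoinositide kinase, AKT and MAP kinase pathways. IGF2R, the cation-independent mannose-phosphate receptor, has no kinase and carries IGF2 to lysosomes. Most IGF outside cells is held by the binding proteins, which keep it from the receptor or release it when proteases cut them, and IGFBP7 binds IGFs only weakly. In the gut, mesenchymal cells are a main local source of IGF1, which acts on the epithelium.

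Total counts per library ran from 15690038 to 23476056, and levels are given as CPM (counts scaled to library size) with TMM factors over the 9 libraries. Colon carried its epithelial label: the 8 epithelial markers summed to 190 to 814 CPM in the tumours, against 17800 to 26300 CPM in sham. Macrophage markers (8 genes) summed to 798 to 1310 CPM in the tumours and 58.2 to 107 CPM in sham, with all 8 above colon in every tumour. Fibroblast and matrix markers (8 genes) summed to 1270 to 2290 CPM in the tumours and 162 to 233 CPM in sham, mainly through the collagen gene Col1a2 (827 to 1250 CPM in the tumours, 28.3 to 47.8 CPM in sham). Of these 8, 5 were above colon in every tumour, while Dcn, Lum and Fbln1 overlapped with colon. Some libraries stood apart from their group. Epcam, an epithelial adhesion protein, was at 67.7 CPM in AC 3 and 35.7 CPM in model 1, against 0.26 to 0.952 CPM in the other 4 tumours. Sham 1 had 895 CPM over 5 B cell markers, against 111 and 54.3 CPM in sham 2 and sham 3, and 289 CPM over 8 smooth muscle markers, against 1740 and 1890 CPM. Values of the named genes that leaving out 1 of these libraries changed in call, or moved by over 1.5-fold, are given with and without it. Whether the libraries of a group are from separate mice is not stated, so the p-values measure a spread that may be technical.

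Of the 10 genes, 4 were higher and 1 was lower than in colon in AC and in model tumours. The receptor Igf1r and the binding proteins Igfbp3, Igfbp4 and Igfbp6 were higher by 5.89-fold or more in each comparison, Igfbp6 by the widest margin, and Igfbp5 was lower. With edgeR's quasi-likelihood test, 8 genes could be tested in model against sham, of which 5 were called at an adjusted p under 0.05, beside 69.7% of all 18228 genes tested. In AC against sham 5 of 9 were called, beside 68.2% of 17832 genes, so in neither comparison was the share of members called above that of all genes. Of these, Igfbp6 passed the filter on low counts in AC against sham through the AC libraries alone. The 5 called members had groups that did not overlap in either comparison, as had 76.9% of all genes in model against sham and 75.7% in AC against sham. Igf1, Igf2r and Igfbp7 were called in neither comparison. Between AC and model tumours none of 8 tested genes was called, beside 0% of 17137 genes. Both tumour groups are set against the same 3 sham libraries, so the comparisons with colon are not independent of each other.

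**Figure D1:**
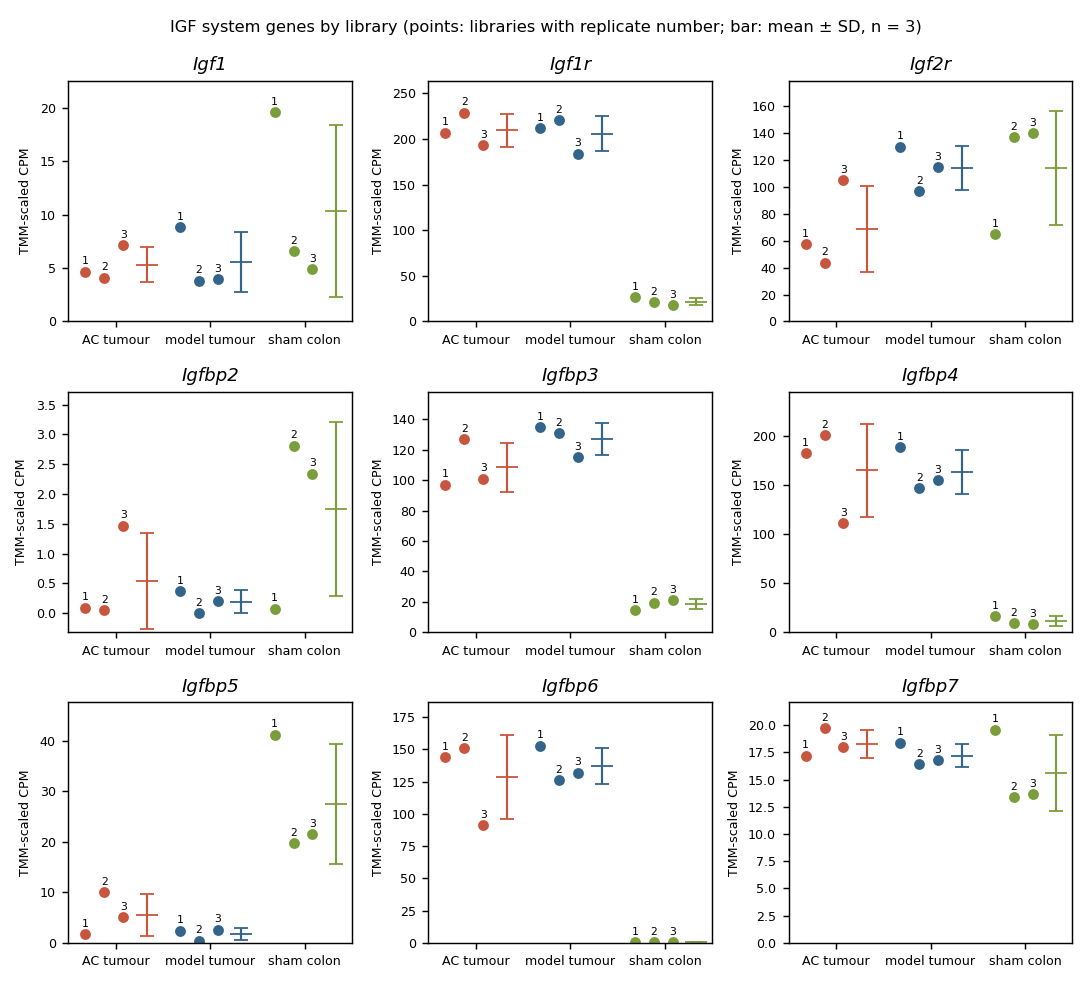
TMM-scaled CPM (y axis) of the 9 detected IGF system genes in AC tumours, model tumours and sham colon; points are libraries with their replicate numbers and bars show the mean ± SD (n = 3). Igf1r, Igfbp3, Igfbp4 and Igfbp6 sit high in all 6 tumours, Igfbp5 sits high in colon, and Igf1, Igf2r and Igfbp7 overlap between all groups.

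The ligands were scarce in every group. Igf1 (chromosome 10, 87858265 to 87937042, plus strand, GENCODE M21 on GRCm38) was at 4.66, 4.1 and 7.15 CPM in AC tumours 1 to 3, 8.83, 3.83 and 4 CPM in model tumours and 19.6, 6.58 and 4.89 CPM in sham. The ranges overlapped, and sham 1 was the highest of the 9 libraries. The log2 fold change was -0.07 in AC against model (SE 0.379, edgeR adjusted p = 0.951), -0.89 in model against sham (SE 0.648, adjusted p = 0.258) and -0.98 in AC against sham (SE 0.599, adjusted p = 0.187), so no difference exceeded the spread between libraries. Without sham 1 the values against sham were 0 for model (adjusted p = 0.994) and -0.18 for AC (adjusted p = 0.629). Sham 1 was also the library with the high B cell and low smooth muscle sums, and their part in its Igf1 level was not tested. Igf2 (chromosome 7, 142650766 to 142666816, minus strand) had 0 counts in all 9 libraries, where 3 counts, the limit that a count of 0 allows, correspond to 0.112 to 0.241 CPM. In the annotation 3596 of its 5723 exon bases (62.8%) also belong to Gm49394, a coding gene model on the same strand that had 0 counts too. Reads in those bases may have been set aside as shared, because the counting rule for such reads is not given in the sources used here; the other exon bases gave 0 counts as well.

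Among the receptors, Igf1r was higher in both tumour groups than in colon. Igf1r (chromosome 7, 67952827 to 68233668, plus strand), the signalling receptor for both ligands, was at 207, 229 and 193 CPM in AC tumours, 212, 221 and 184 CPM in model tumours and 26.3, 21 and 18.3 CPM in sham. Every tumour lay several-fold above every colon, while the AC and model ranges overlapped. It was 9.48-fold higher in model than in sham (log2 fold change 3.25, SE 0.208, edgeR adjusted p = 4.44e-05, higher in 3 of 3 libraries) and 9.54-fold higher in AC than in sham (log2 fold change 3.25, SE 0.196, adjusted p = 5.43e-05). Between AC and model the log2 difference was 0.02 with a 95% interval of -0.2 to 0.25 (adjusted p = 0.938).

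Igf2r did not pass the test in any comparison, and its values were spread unevenly. Igf2r (chromosome 17, 12682406 to 12769664, minus strand), which clears IGF2, was at 57.6, 43.7 and 105 CPM in AC tumours, 130, 96.9 and 115 CPM in model tumours and 64.9, 137 and 140 CPM in sham. AC 1, AC 2 and sham 1 were the 3 low libraries, and AC 3 fell among the model tumours. The log2 fold change was -0.72 in AC against model (SE 0.353, 95% interval -1.6 to 0.16, edgeR adjusted p = 0.447), 0.03 in model against sham (SE 0.293, adjusted p = 0.933) and -0.7 in AC against sham (SE 0.421, adjusted p = 0.183). The AC-to-model value depended on AC 3, without which Igf2r was lower in AC than in model by the test (log2 fold change -1.18, adjusted p = 0.0166). Without both AC 3 and model 1, the tumours with Epcam, it was -1.07 (adjusted p = 0.0347). Without AC 3 it was also lower in AC than in sham (log2 fold change -1.15, adjusted p = 0.0362). The part of the epithelial markers in these values was not tested.

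The balance between receptors was compared with the authors' FPKM (counts scaled by gene length and library total). The length used is the sum of all annotated exon bases of a gene, which can differ from that of the transcript expressed. The FPKM of Igf1r over that of Insr, the insulin receptor, was 2.92, 3.23 and 2.07 in AC tumours, 1.91, 2.24 and 1.89 in model tumours and 0.201, 0.101 and 0.0838 in sham. By this measure Igf1r was ahead in every tumour and Insr in every colon. Igf1r over Igf2r was 1.99, 2.9 and 1.01 in AC tumours, 0.906, 1.26 and 0.89 in model tumours and 0.225, 0.0852 and 0.0723 in sham, so the FPKM of the 2 receptors were near parity in model tumours and in AC 3. In AC 1 and AC 2, the libraries with the low Igf2r, Igf1r was ahead.

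**Figure D2:**
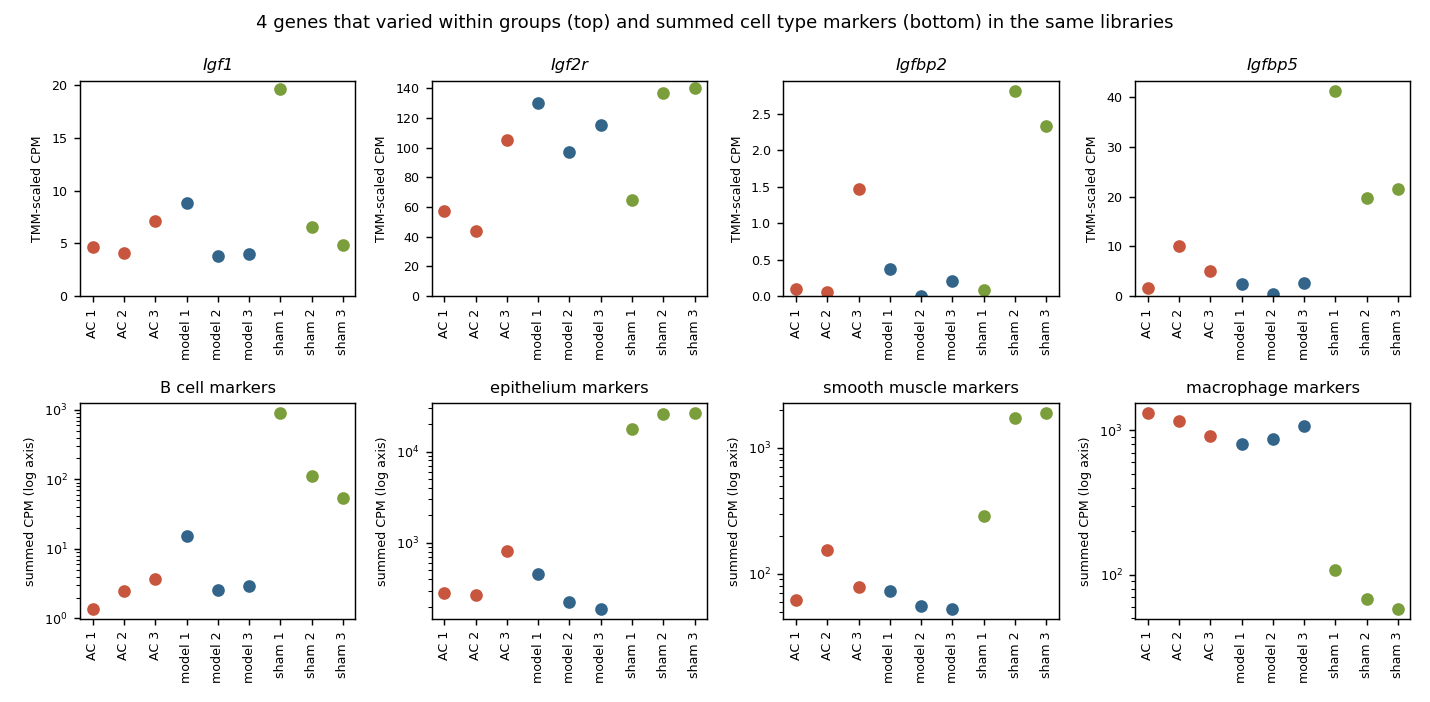
TMM-scaled CPM of 4 genes that varied within groups (top, linear axes) and summed CPM of 4 marker lists (bottom, log axes) in the same 9 libraries, AC, model and sham from left to right. Sham 1 is highest in Igf1 (19.6 CPM), Igfbp5 (41.2 CPM) and B cell markers (895 CPM) and lowest of the colons in Igf2r and smooth muscle markers.

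Of the 6 binding proteins, 3 rose in both tumour groups. Igfbp6 (chromosome 15, 102144362 to 102149511, plus strand), which prefers IGF2 over IGF1, was at 144, 151 and 91.2 CPM in AC tumours, 153, 126 and 132 CPM in model tumours and 0.701, 0.803 and 0.638 CPM in sham, where these levels rest on 9, 10 and 9 counts. Colon libraries held it near the detection limit, and every tumour held it at a high level. It was 193-fold higher in model than in sham (log2 fold change 7.59, SE 0.209, edgeR adjusted p = 1.41e-05) and 179-fold higher in AC than in sham (log2 fold change 7.48, SE 0.279, adjusted p = 2.61e-05). In AC against sham it passed the filter on low counts through the AC libraries alone, as 0 colon libraries reached its cutoff. Its call there is therefore not read as support beyond the levels given. In model against sham 2 colon libraries reached the cutoff. Mesothelial markers (4 genes) summed to 241, 305 and 242 CPM in AC, 197, 270 and 195 CPM in model and 13.2, 5.14 and 3.4 CPM in sham, almost all of it Msln (193 to 299 CPM in the tumours, 3.05 to 13 CPM in sham). Wt1 was also above colon in every tumour (1.1 to 4.16 CPM, against 0 to 0.161 CPM), and Upk3b and Lrrn4 overlapped with colon. The part of such cells, and of fibroblasts, in the Igfbp6 level was not tested. In bulk tissue fewer cells of a type and less RNA per cell cannot be told apart.

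Igfbp4 (chromosome 11, 99041244 to 99054392, plus strand), an inhibitor of IGF action that the protease PAPP-A cuts, was at 183, 201 and 111 CPM in AC tumours, 189, 147 and 155 CPM in model tumours and 16.7, 9.23 and 8.09 CPM in sham. The lowest tumour, AC 3, stood well above the highest colon, sham 1. It was 14.5-fold higher in model than in sham (log2 fold change 3.86, SE 0.349, edgeR adjusted p = 0.000149) and 14.4-fold higher in AC than in sham (log2 fold change 3.85, SE 0.388, adjusted p = 0.00028). Igfbp3 (chromosome 11, 7206086 to 7213923, minus strand), the main carrier of IGF1 in blood, was at 97, 127 and 101 CPM in AC tumours, 135, 131 and 115 CPM in model tumours and 14.6, 19.5 and 21.3 CPM in sham. Tumour and colon ranges were again far apart. The rise was 7-fold in model over sham (log2 fold change 2.81, SE 0.176, adjusted p = 4.23e-05) and 5.89-fold in AC over sham (log2 fold change 2.56, SE 0.182, adjusted p = 8.18e-05). Endothelial markers (8 genes) summed to 117 to 158 CPM in the tumours and 40 to 46.6 CPM in sham. Of these, 6 were above colon in every tumour, and Tek (2.32 to 3.38 CPM in the tumours, 1.17 to 2.89 CPM in sham) and Vwf (0.935 to 3.99 CPM, against 0.857 to 7.31 CPM) overlapped. Their part in the Igfbp3 level was not tested.

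Igfbp5 was the member that fell. Igfbp5 (chromosome 1, 72857932 to 72874884, minus strand), a binding protein that also attaches to the extracellular matrix, was at 1.67, 10 and 5.04 CPM in AC tumours, 2.42, 0.455 and 2.6 CPM in model tumours and 41.2, 19.7 and 21.5 CPM in sham. All tumours were below all colons, sham 1 was the highest, and AC 2 was the highest tumour. The log2 fold change was -3.9 in model against sham (SE 0.679, edgeR adjusted p = 0.00224) and -2.32 in AC against sham (SE 0.663, adjusted p = 0.0192). The AC call did not hold without AC 3 (log2 fold change -2.25, adjusted p = 0.0609) or without sham 1 (-1.96, adjusted p = 0.0608), nor without scaling factors (-1.68, adjusted p = 0.0557). Between AC and model the log2 difference was 1.6, with a wide 95% interval of -0.43 to 3.64 (adjusted p = 0.461). Against sham the AC value was -2.99 without AC 2 (adjusted p = 0.0146). Of 8 smooth muscle markers 6 were below colon in every tumour and Actg2 and Des overlapped. Their sum was 62.2, 155 and 78.6 CPM in AC, 73.2, 55.5 and 52.6 CPM in model and 289, 1740 and 1890 CPM in sham. Myh11, a smooth muscle myosin, was at 36.3 CPM in AC 2 and at most 7.41 CPM in the other tumours. Within sham the order was the reverse, with Igfbp5 highest where the smooth muscle sum was lowest, and the part of these cells in the Igfbp5 level was not tested.

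Igfbp7 and Igfbp2 were called in no comparison of the fits reported. Igfbp7 (chromosome 5, 77349240 to 77408041, minus strand), a matrix protein with weak IGF binding, was the steadiest member, at 17.2, 19.7 and 18 CPM in AC tumours, 18.4, 16.4 and 16.8 CPM in model tumours and 19.6, 13.4 and 13.7 CPM in sham. Its log2 fold change was 0.09 in AC against model (95% interval -0.19 to 0.36, edgeR adjusted p = 0.792), 0.16 in model against sham (adjusted p = 0.56) and 0.23 in AC against sham (adjusted p = 0.402). In the annotation 85 of its exon bases (7.03%) lie opposite Polr2b, whose reads there cannot be told apart if the counting ignored strand. Without sham 1, Igfbp7 was higher in model than in sham (log2 fold change 0.38, adjusted p = 0.0319). Igfbp2 (chromosome 1, 72824503 to 72852474, plus strand), a carrier of both ligands, had only 2, 1 and 28 counts in AC tumours, 10, 0 and 4 counts in model tumours and 1, 35 and 33 counts in sham. High counts were found in AC 3, sham 2 and sham 3. In the fits reported the gene passed the filter on low counts in AC against sham only, where its log2 fold change was -1.63 (SE 1.33, adjusted p = 0.312). Without AC 3 that value was -4.35 (adjusted p = 0.048) and without sham 1 it was -2.31 (adjusted p = 0.112), values that rest on few counts and on the colon libraries that carried the gene past the filter. In model against sham it was not tested in the fit reported. Without sham 1, 7 members were called there, 5 higher and 2 lower, beside 15339 of all 19464 genes tested, 8253 higher and 7086 lower. Igf2r and Igf1 were not among them (lowest adjusted p = 0.093 and 0.1 when 1 library was left out). The lower member beside Igfbp5 was therefore Igfbp2, a call that rests on the same few counts in sham 2 and sham 3. Igfbp2 and Igfbp5 lie tail to tail, 5457 bases apart.

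**Figure D3:**
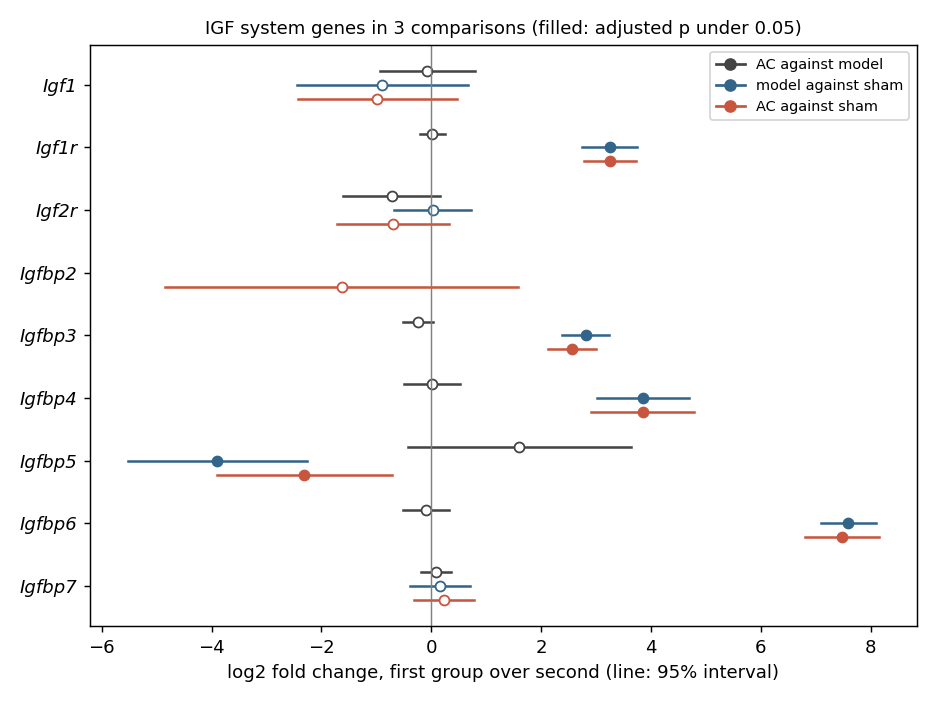
Log2 fold change (x axis) with its 95% interval for each IGF system gene in the 3 comparisons; filled points have an edgeR adjusted p under 0.05, and untested genes have no point. All AC-against-model points are open, and both comparisons with sham show Igfbp6 at the right (7.59 and 7.48) and Igfbp5 at the left (-3.9 and -2.32).

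The start regions of the 5 genes that differed from colon are shown because these genes moved together in both tumour groups, Igf1r, Igfbp3, Igfbp4 and Igfbp6 upwards and Igfbp5 downwards. Each window holds 250 bases before and 50 after the RefSeq start on GRCm38.p6, read 5′ to 3′ on the gene's strand. Capitals mark matches to 4 motifs searched on both strands. The GC box, spelled GGGCGG, is held by 35.7% of the 32851 RefSeq windows of this length. The TATA box, spelled TATAAA, is held by 13.6% of them. The box named after its letters CCAAT is held by 37.4%. The AP-1 site, spelled TGANTCA, is held by 7.81% of the windows and by none of these 5. No matches overlap each other here.
Igf1r: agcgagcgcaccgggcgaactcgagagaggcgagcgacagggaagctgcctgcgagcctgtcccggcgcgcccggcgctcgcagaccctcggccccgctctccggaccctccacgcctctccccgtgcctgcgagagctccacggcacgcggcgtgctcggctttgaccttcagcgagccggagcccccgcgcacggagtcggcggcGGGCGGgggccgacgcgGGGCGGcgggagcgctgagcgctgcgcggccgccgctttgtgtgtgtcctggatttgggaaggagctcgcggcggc
Igfbp3: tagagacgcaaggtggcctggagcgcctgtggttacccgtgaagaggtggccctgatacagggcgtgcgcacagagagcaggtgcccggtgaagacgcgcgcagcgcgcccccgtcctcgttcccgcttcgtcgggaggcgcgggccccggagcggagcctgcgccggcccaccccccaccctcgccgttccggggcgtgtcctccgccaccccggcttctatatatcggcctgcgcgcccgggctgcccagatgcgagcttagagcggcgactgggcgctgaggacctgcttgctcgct
Igfbp4: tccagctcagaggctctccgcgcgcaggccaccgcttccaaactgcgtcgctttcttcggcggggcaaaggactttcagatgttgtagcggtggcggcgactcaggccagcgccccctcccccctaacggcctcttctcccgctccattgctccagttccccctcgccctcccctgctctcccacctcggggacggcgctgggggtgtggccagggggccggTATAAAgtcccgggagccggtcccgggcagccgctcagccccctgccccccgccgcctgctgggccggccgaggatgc
Igfbp6: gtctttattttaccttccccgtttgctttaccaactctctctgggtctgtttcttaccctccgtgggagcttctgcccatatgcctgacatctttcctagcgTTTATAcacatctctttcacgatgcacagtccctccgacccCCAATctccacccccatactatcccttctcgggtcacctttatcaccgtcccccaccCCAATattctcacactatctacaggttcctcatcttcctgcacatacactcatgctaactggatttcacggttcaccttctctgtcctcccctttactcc
Igfbp5: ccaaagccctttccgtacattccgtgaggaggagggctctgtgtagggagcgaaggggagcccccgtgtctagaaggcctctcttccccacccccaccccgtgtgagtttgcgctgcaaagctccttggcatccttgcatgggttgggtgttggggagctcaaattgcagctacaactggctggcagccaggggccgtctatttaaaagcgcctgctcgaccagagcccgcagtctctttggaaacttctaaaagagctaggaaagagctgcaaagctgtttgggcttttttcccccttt

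No motif was held by the windows of all 4 genes that rose. Those of Igf1r, Igfbp3 and Igfbp4 had more G and C than 96.9%, 92.6% and 92.6% of all windows, and that of Igfbp6 more than 38.1%. For Igf1, Igf2r and Igfbp7, called in neither comparison with sham, these values were 47.8%, 91.4% and 94.5%. Igf1r (chr7:67952007-67952306, plus strand) had 76% G and C with 48 CpG pairs, and its 2 GC boxes lie at -43 to -38 and -26 to -21 from the RefSeq start, which is 570 bases upstream of the GENCODE start. Igfbp3 (chr11:7213874-7214173, minus strand), with 71.7% G and C and 37 CpG pairs, held none of the motifs. Igfbp4 (chr11:99040994-99041293, plus strand), with 71.3% G and C and 27 CpG pairs, held a TATA box at -28 to -23. The Igfbp6 window (chr15:102143936-102144235, plus strand) was the poorest in G and C (49.7%, 8 CpG pairs), with CCAAT boxes at -107 to -103 and -50 to -46 and a TATA match on the opposite strand at -148 to -143. Its RefSeq start is 176 bases upstream of the GENCODE start. Igfbp5 (chr1:72874816-72875115, minus strand), the gene that fell, had 56.3% G and C, 10 CpG pairs and no match. A match is a description of the letters only.

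By FPKM, the order of the members differed between tumour and colon. FPKM carry no TMM factors, which were 1.13 to 1.19 in the tumours and 0.709 to 0.8 in sham. They are used here to order genes within a group, and the FPKM of a gene are not compared between tumour and colon. In AC tumours Igfbp6 averaged 135 ± 33.1 FPKM (SD, n = 3), Igfbp4 43.6 ± 12 FPKM and Igfbp3 40.4 ± 5.6 FPKM. In model tumours the same 3 genes led, at 141 ± 14.8 FPKM for Igfbp6, 46.5 ± 3.2 FPKM for Igfbp3 and 42.5 ± 5.8 FPKM for Igfbp4. Igfbp6 did not overlap with the next gene in either tumour group, whereas the ranges of Igfbp3 and Igfbp4 overlapped in both. Below them stood Igfbp7 at 17.7 ± 1.05 FPKM in AC and 16.3 ± 1.05 FPKM in model, Igf1r at 14.6 ± 1.05 FPKM and 14 ± 1.07 FPKM, and Igf2r at 8.69 ± 4.18 FPKM and 14 ± 2.12 FPKM. Igfbp5, Igf1 and Igfbp2 averaged at most 1.08 FPKM in the tumours, and neighbours in this low range overlapped.

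In sham colon, Igfbp7 (9.66 ± 2.82 FPKM) and Igf2r (8.96 ± 2.94 FPKM) came first and overlapped. Igfbp3 (4.35 ± 0.573 FPKM), Igfbp5 (3.46 ± 1.75 FPKM) and Igfbp4 (1.94 ± 0.935 FPKM) followed, Igfbp5 overlapping with both of the others. Igf1r (0.977 ± 0.248 FPKM), Igf1 (0.805 ± 0.677 FPKM) and Igfbp2 (0.678 ± 0.568 FPKM) came next and also overlapped. Igfbp6 had the lowest mean of the detected members in colon, at 0.478 ± 0.063 FPKM, within the range of Igfbp2. Its mean level exceeded that of 99% of 21918 coding genes in AC tumours and 99.1% in model tumours, and that of 47% in sham.

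The make-up of the binding protein transcripts changed accordingly. Of the summed FPKM of the 6 Igfbp genes, Igfbp6 made up 56.4% ± 3.61 in AC tumours, 57.1% ± 0.859 in model tumours and 2.37% ± 0.477 in sham (SD, n = 3 each). Igfbp7 made up 7.63% ± 1.65 in AC, 6.61% ± 0.233 in model and 46.5% ± 3.34 in sham, although its own level was not called different. Igfbp5 made up 0.454% ± 0.293 in AC, 0.139% ± 0.0905 in model and 16.2% ± 4.49 in sham. Colon transcripts were thus mostly Igfbp7, Igfbp3 and Igfbp5, and tumour transcripts mostly Igfbp6, Igfbp4 and Igfbp3. The share of Igfbp3 overlapped between all groups, at 17.3% ± 3.15 in AC, 18.9% ± 1.52 in model and 22.1% ± 6.67 in sham. The summed Igfbp FPKM over the Igf1 FPKM was 460, 580 and 216 in AC, 268, 524 and 507 in model and 16.2, 37.5 and 51.4 in sham, so every tumour had more binding protein transcript per Igf1 transcript than any colon. AC 3 and model 1, the tumours with Epcam, gave the lowest tumour ratios.

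**Figure D4:**
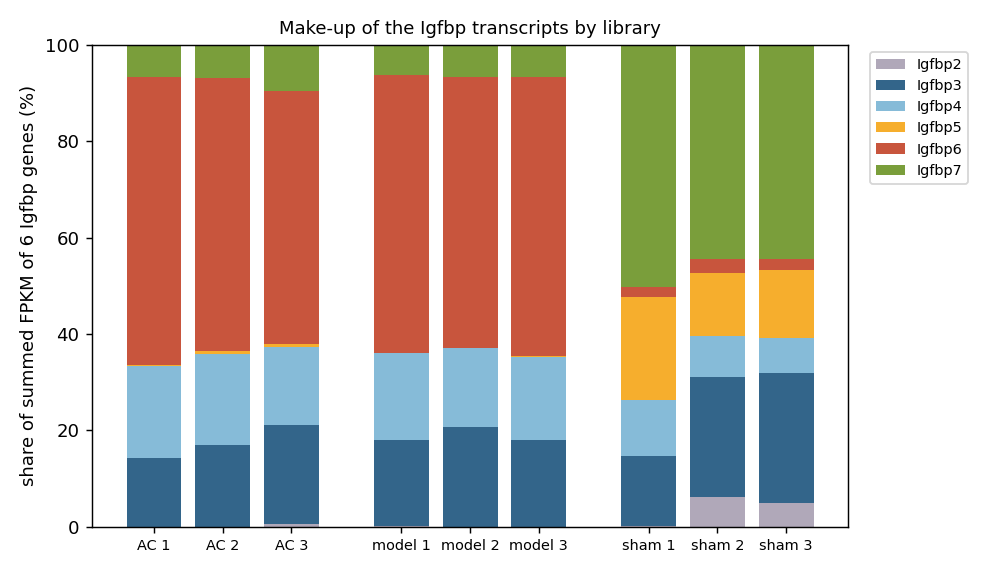
Share (%) of the summed FPKM of 6 Igfbp genes taken by each gene, as 1 stacked bar per library. Igfbp6 takes the largest block in all 6 tumours (52.6% to 59.8%), and Igfbp7 in all 3 colons (44.5% to 50.3%).

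Of the 44 other genes of the pathway, 35 could be tested in model against sham, of which 14 rose, 11 fell and 10 were not called, with a median log2 fold change of 0.32, against 0.12 over all genes tested. In AC against sham 15 rose and 11 fell of 36 tested, with a median of 0.28 against 0.1 over all genes. Of all genes tested, 36.8% rose and 32.9% fell in model against sham, and 35.5% rose and 32.7% fell in AC against sham, so the pathway list moved in both directions, as all genes did. Without scaling factors the split was 20 higher and 6 lower of the pathway genes called in model against sham and 19 and 9 in AC against sham, and over all genes 9060 and 4405, and 8832 and 4114, where the fit reported gave 6700 and 5997, and 6339 and 5826. The members called in AC against sham were then 5 higher and 0 lower.

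In the growth hormone branch, Ghr, the growth hormone receptor, averaged 154 CPM in AC, 205 CPM in model and 11 CPM in sham (log2 fold change 3.82 in AC against sham, edgeR adjusted p = 7.04e-05; 4.24 in model against sham, adjusted p = 2.86e-05). Stat5b, a transcription factor of this receptor, was slightly higher (log2 fold change 0.54, adjusted p = 0.0112 in AC; 0.77, adjusted p = 0.00152 in model), the first value not holding without sham 2 (0.5, adjusted p = 0.0608). Jak2, the kinase bound to the receptor, fell by 1.51 on the log2 scale in AC and by 1.26 in model (adjusted p = 0.000135 and 0.000278). Socs2, a feedback inhibitor, averaged 9.63 CPM in AC, 9.51 CPM in model and 46.1 CPM in sham (log2 fold change -2.25 in both comparisons, adjusted p = 0.000693 in AC and 0.000248 in model). The branch therefore held 2 genes that rose and 2 that fell of 5 tested, beside 36.8% and 32.9% of all genes in model against sham. In AC against sham these shares of all genes were 35.5% and 32.7%.

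Among adaptors and signalling genes, 9 of 19 tested rose and 4 fell in model against sham, beside 36.8% and 32.9% of all genes. In AC against sham 9 rose and 5 fell, beside 35.5% and 32.7% of all genes. Irs1, the adaptor that IGF1R phosphorylates, was at 13.7, 16.4 and 20.9 CPM in AC, 29.1, 26.3 and 18.7 CPM in model and 0, 0.241 and 0.355 CPM in sham, so it was close to the detection limit in colon only. Its log2 fold change was 6.36 in AC against sham and 6.92 in model against sham (adjusted p = 0.000318 and 0.000149). These sizes rest on a few colon counts and were 7.05 and 7.55 without sham 3, and 5.72 and 6.37 without sham 1. In both comparisons Irs1 passed the filter on low counts through the tumours alone. Its calls, included in the counts above, are therefore not read as results. Eif4ebp1, a translation repressor that MTOR phosphorylates, averaged 94.5 CPM in AC, 98.6 CPM in model and 5.28 CPM in sham (log2 fold change 4.17, adjusted p = 0.000167; 4.25, adjusted p = 0.000117). Foxo3, a transcription factor that AKT keeps out of the nucleus, was lower, at 58.8 CPM in AC, 57.1 CPM in model and 388 CPM in sham (-2.71, adjusted p = 0.000191; -2.74, adjusted p = 0.000141). Grb14, an inhibitor of insulin receptor signalling, had 0 counts in all 3 model libraries and averaged 1.94 CPM in sham, which makes it at least 14.4-fold lower in model, taking 3 counts per library as the floor. Grb14 passed the filter through colon alone in both comparisons with sham, so its tests there are not read as results. The fold bound describes the levels only.

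Insr, the insulin receptor, was at 58.1, 58 and 76.3 CPM in AC tumours, 90.9, 80.7 and 79.7 CPM in model tumours and 108, 170 and 179 CPM in sham. It was lower in both tumour groups (log2 fold change -1.23 in AC against sham, adjusted p = 0.00319; -0.83 in model against sham, adjusted p = 0.00903), the reverse of Igf1r. Without scaling factors the model value was -0.22 and missed the threshold (adjusted p = 0.288), as did those of Stc2 (-0.59, adjusted p = 0.0883) and Igf2bp2 (-0.32, adjusted p = 0.108) in model against sham. That setting raised the median of all genes from 0.12 to 0.72, and relative to the median the 3 values were -0.94, -1.31 and -1.04, against -0.95, -1.31 and -1.05 with the factors. Ins1, Ins2 and Irs4 had 0 counts in all libraries, and Igfbp1, neighbour of Igfbp3, had 1 count in total.

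Proteases of the binding proteins and their inhibitors moved in both directions, as all genes did. In model against sham 3 of 6 tested rose and 2 fell, beside 36.8% and 32.9% of all genes. In AC against sham 3 rose and 1 fell, beside 35.5% and 32.7% of all genes. Adamts1, a secreted metalloproteinase, averaged 39 CPM in AC, 57.4 CPM in model and 0.999 CPM in sham (log2 fold change 5.3, edgeR adjusted p = 0.000288; 5.87, adjusted p = 2.82e-05). Adam12, which cuts IGFBP3 and IGFBP5, averaged 12.3 CPM in AC, 17.8 CPM in model and 0.487 CPM in sham (4.64, adjusted p = 0.00513; 5.17, adjusted p = 0.00217). The colon mean came mostly from sham 1, with 16 counts against 0 and 3 in the other colons; without sham 1 the log2 fold changes were 6.63 and 7.25, and without sham 2 they were 4.06 and 4.55. The stanniocalcins, which block PAPP-A, went opposite ways. Stc1 averaged 5.49 CPM in AC, 7.07 CPM in model and 0.949 CPM in sham (2.53, adjusted p = 0.0065; 2.9, adjusted p = 0.0016; 3.1 and 3.57 without sham 1), and Stc2 3.29, 3.87 and 9.05 CPM (-1.45, adjusted p = 0.00325; -1.19, adjusted p = 0.00996). For Adam12 and for Stc1, 3 tumour libraries but only 1 colon library reached the cutoff of the filter on low counts in each comparison with sham. Their calls are therefore not read as support beyond the levels given. Pappa itself, the gene of PAPP-A, was not called in model against sham (log2 fold change -0.69, adjusted p = 0.179).

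Of the RNA-binding proteins and genes tied to the Igf2 locus, 2 of 4 tested fell in model against sham, where 32.9% of all genes fell. In AC against sham 1 of 5 rose and 2 fell, beside 35.5% and 32.7% of all genes. Igf2bp2, which binds Igf2 mRNA, averaged 78.6 CPM in AC, 87.4 CPM in model and 169 CPM in sham (log2 fold change -1.1, edgeR adjusted p = 0.00112; -0.93, adjusted p = 0.00384). Plagl1, an imprinted transcription factor, averaged 0.177 CPM in AC, 0.0995 CPM in model and 1.3 CPM in sham (-2.85, adjusted p = 0.00222; -3.56, adjusted p = 0.000859). H19, the imprinted non-coding neighbour of Igf2, was at 0.714, 1.05 and 0.998 CPM in AC tumours, 1.08, 0.137 and 0.26 CPM in model tumours and 0.156, 0.161 and 0.0709 CPM in sham. The colon values rest on 2, 2 and 1 counts, and H19, the gene counted as higher in AC against sham, passed the filter there through the AC libraries alone, so its call is not read as a result. Plagl1 likewise passed through colon alone in both comparisons with sham, so its calls are not read as results either. Both genes remain in the counts above. H19 was too low to be tested in model against sham.

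**Figure D5:**
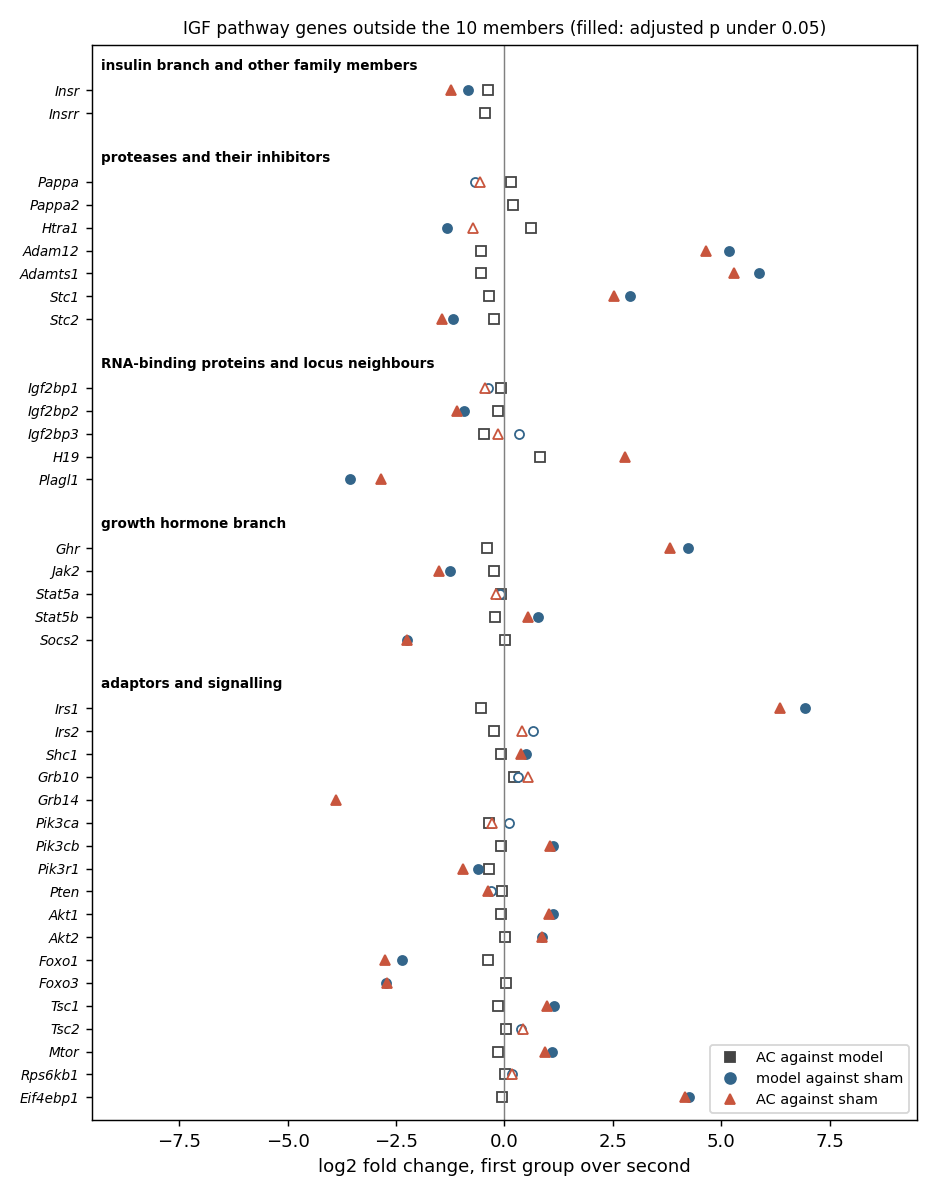
Log2 fold change (x axis) of tested IGF pathway genes outside the 10 members, with squares for AC against model, circles for model against sham and triangles for AC against sham; filled symbols have an edgeR adjusted p under 0.05. All squares are open; Grb14 has no circle because every model library was at 0.

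Between AC and model tumours, no difference in the system passed the test. None of the 8 members tested had an edgeR adjusted p under 0.05, none had an unadjusted p under 0.05 (13.1% of all genes did), and DESeq2 called none. In all 8 genes the libraries of the 2 groups overlapped, whereas 19% of all genes tested had groups that did not overlap. The intervals show how large a difference could be missed. For Igf1r (-0.2 to 0.25), Igfbp7 (-0.19 to 0.36), Igfbp3 (-0.51 to 0.04), Igfbp4 (-0.5 to 0.52) and Igfbp6 (-0.52 to 0.33) the 95% intervals of the log2 difference lay within 0.52 of 0, and those of Igf1 (-0.94 to 0.8), Igf2r (-1.6 to 0.16) and Igfbp5 (-0.43 to 3.64) were wider.

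Of the 36 other pathway genes tested between AC and model, edgeR and DESeq2 called none, and 6 had an unadjusted p under 0.05, a share near the 13.1% of all genes. Over all genes edgeR called none and DESeq2 305, 82 higher and 223 lower in AC. All 6 pathway genes were lower in AC, the direction that most DESeq2 calls over all genes also had. They failed the correction for multiple tests, and 5 of them are given here, chosen after their values were seen. Pik3ca, a catalytic subunit of the phosphoinositide kinase, had a log2 fold change of -0.36 (edgeR adjusted p = 0.257), Insr -0.39 (adjusted p = 0.295), Adam12 -0.53 and Ghr -0.41 (adjusted p = 0.304 each) and Irs1 -0.54 (adjusted p = 0.343). Insr passed without AC 3 (log2 fold change -0.54, adjusted p = 0.0313).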

How the data were processed

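Gene expression was measured by RNA-seq in 9 samples, grouped by the treatment the labels give. Trizol RNA and the VAHTS Universal V6 kit were used, per the labels' protocols. The authors deposited raw read counts, and the submitters' processing notes name featureCounts 1.5.0-p3 and mm9. They also deposited FPKM values, the counts scaled by gene length and library total. The sources used here give neither the aligner nor the strand setting. The lengths implied by counts and FPKM were within 1% of GENCODE M21 exon sums (GRCm38) in 96.8% of the 22279 genes that had 20 or more counts, so symbols and coordinates are from M21.

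Tests used edgeR 4.0.16 in R 4.3.3, fitted for each comparison to its 6 libraries alone (TMM, filterByExpr, robust quasi-likelihood fit, Benjamini-Hochberg over all genes tested, threshold 0.05). DESeq2 1.42.0, other scalings, no filter, all libraries in 1 fit, a replicate block and leaving libraries out were alternatives. The script was tested on simulated data. Levels between genes were compared by FPKM only. Floors of 3 counts cover counting error only. The 10 members are named throughout, with up to 4 genes of each pathway group by smallest adjusted p in model against sham; other genes were named after their values were seen, and 1 pathway gene that the counts include is not reported here. Members and lists were chosen with earlier results of these data known. No 2 libraries of a group agreed within sampling noise.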

Additional observations from a re-analysis of the deposited data

How the results depend on the processing

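Igf1r, Igfbp3, Igfbp4 and Igfbp6 kept their direction and call against sham under every alternative run. For Igfbp6 in AC against sham this adds no support, as it passed the filter on low counts there through the AC libraries alone. Igfbp5 did so in model against sham, and in AC against sham lost its call without scaling factors (log2 fold change -1.68, edgeR adjusted p = 0.0557) as well as without AC 3 or sham 1. Of the alternative counts of called genes, 118 were within 1.5 times the count reported and 8 were not, all 8 in AC against model. Over all genes it gave 0 calls in the fit reported, 105 with no filter on low counts, 305 with DESeq2, 94 without model 1 and AC 3 together, and 0 to 569 when 1 library was left out, 569 being without AC 3. The members called there were 0 to 1 and the other pathway genes 0 to 2 when 1 library was left out, and 1 and 1 without model 1 and AC 3. Signs turned for values near 0. In AC against model, Igfbp4 was at -0.03 with the replicate block, and without model 1 and AC 3 Igf1 was at 0.15 and Igfbp6 at 0.18. Leaving out 1 library gave -0.36 to 0.44 for Igf1, -0.05 to 0.08 for Igf1r, -0.16 to 0.21 for Igfbp4, -0.22 to 0.09 for Igfbp6 and -1.18 to -0.48 for Igf2r. In model against sham Igf2r was at -0.08 with DESeq2 size factors and in DESeq2's test, -0.07 without model 1 (with or without AC 3), and -0.25 to 0.18 when 1 library was left out, and Igfbp7 ran from -0.02 to 0.38. Without scaling factors the median of all genes moved from 0.12 to 0.72 in model against sham and from 0.1 to 0.75 in AC against sham, and Igfbp7 was called higher (0.76, adjusted p = 0.0256, and 0.87, adjusted p = 0.0163), which relative to those medians is 0.04 and 0.12. When 1 library was left out, 5 to 7 members and 23 to 29 pathway genes were called in model against sham, and 4 to 6 and 21 to 25 in AC against sham. Over all genes the calls then ran from 11677 to 15339 in model against sham and from 10899 to 14360 in AC against sham. Same-numbered libraries did not consistently deviate together (correlations from -0.43 to 0.37 in AC against model). The labels state no pairing, and with 3 libraries per group these correlations cannot exclude one. With replicate number as a block 0 members were called in AC against model and 5 in each comparison with sham, as without it. The cause of these changes was not tested. Depth limits Igf2, Igfbp2 and the colon level of Igfbp6, which rest on at most 35 counts per library.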

Other observations

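For each detected member, the coding genes with the most similar pattern over the 9 libraries were looked up, by the mean absolute difference of centred log2(CPM + 0.5) values, where 0 would be the same pattern. This is a description and says nothing of shared function or control. Igf1r came closest to Chaf1a (0.0639), a subunit of chromatin assembly factor, followed by Polr1a (0.0729) and Ppm1f (0.079). Igfbp3 came closest to Prrc2b (0.0731) and Elmo2 (0.0815), with the VEGF receptor Flt1 at 0.0904. The nearest genes to Igfbp6 were Glrp1 (0.169), Amigo2 (0.191) and Fbln2 (0.196), a matrix fibulin, and the nearest to Igfbp4 was Cbx6 (0.118). Igfbp7 had the nearest neighbour of all, the myosin light chain Myl12a at 0.0403. Igf2r, which was uneven within groups, came closest to Cd8a (0.162), the T cell co-receptor chain, and Igfbp2 to the lipase Lpl (0.275). Igf1 came closest to the ribosomal protein gene Rps29 (0.201), and Igfbp5 had no close neighbour, with Arhgef26 nearest at 0.509 and the EGF family ligand Areg at 0.566.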
